A study of Homo sapiens with 16 samples.

Results

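The libraries described here came from senescent IMR-90 ER:Ras cells in which JUN-family members were knocked down. They were 2 of the 16 libraries of the series, taken by their labels, and were set against the 4 paired-end libraries of control senescent cells (Sen). Chromatin accessibility was measured by ATAC-seq, which marks open DNA by the sites where the Tn5 transposase can place adapters. IMR-90 is a widely used human lung fibroblast line, and the ER:Ras derivative carries an oncogenic Ras fused to an oestrogen receptor, which makes it switchable by 4-hydroxytamoxifen (4-OHT). All 6 libraries shared this background and received 100 nM 4-OHT for 6 days, which induces oncogene-induced senescence. They differed in the siRNA. The knockdown libraries are titled cJUN/JUND-KD, while their treatment label names siRNAs against cJUN, JUNB and JUND, and the Sen libraries carry siCtrl. Merging the peaks of the 6 lists on chromosomes 1 to 22, with 1 bp of overlap enough to join them, gave 128876 regions (genome build hg19). For comparison, regions were also looked up in the paired-end lists of 2 Pro and 2 siFOXF1/2 libraries. The siFOXF1/2 libraries are senescent cells with siRNA against FOXF1/2 and the same 4-OHT treatment. The Pro libraries have no 4-OHT label. Their cell type label reads senescent fibroblast, and they were taken as proliferating from their titles.

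The proteins c-JUN, JUNB and JUND are subunits of AP-1, a dimeric transcription factor that they form with each other or with FOS-family partners. AP-1 binds short palindromic DNA elements, many of them in enhancers far from gene starts, and responds to Ras and stress signalling. It has been described as a factor that helps keep enhancers accessible in fibroblasts undergoing oncogene-induced senescence. An ATAC-seq peak list shows where accessible DNA rose above the local background, and neither the knocked-down proteins nor their RNA can be read from it.

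After JUN-family knockdown the lists held fewer peaks over less DNA. The knockdown libraries listed 61426 and 58955 peaks, against 99387, 100656, 96512 and 99432 in Sen. They covered 25.7 and 23.5 Mb, against 55.7, 55.6, 47.1 and 40.6 Mb in Sen. Both knockdown libraries lay below every Sen library in both measures. Peak number averaged 60191 ± 1747 after knockdown (SD, n = 2) and 98997 ± 1758 in Sen (SD, n = 4), a ratio of 0.608, and the ratio of covered length was 0.495. The median summit fold, the authors' ratio of the summit's pileup to its local background, was 7.85 and 8.53 after knockdown against 9.19, 9.37, 9.16 and 9.21 in Sen, again without overlap. The median peak width was 321 and 308 bp after knockdown against 471, 460, 392 and 321 bp in Sen, so that knockdown replicate 1 and Sen replicate 4 had the same median. With 2 against 4 libraries a two-sided exact permutation test cannot give a p below 0.133. It gave 0.133 for peak number, covered length and summit fold and 0.267 for width, or 0.178 and 0.267 after Benjamini-Hochberg adjustment over the 4 measures.

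**Figure D1:**
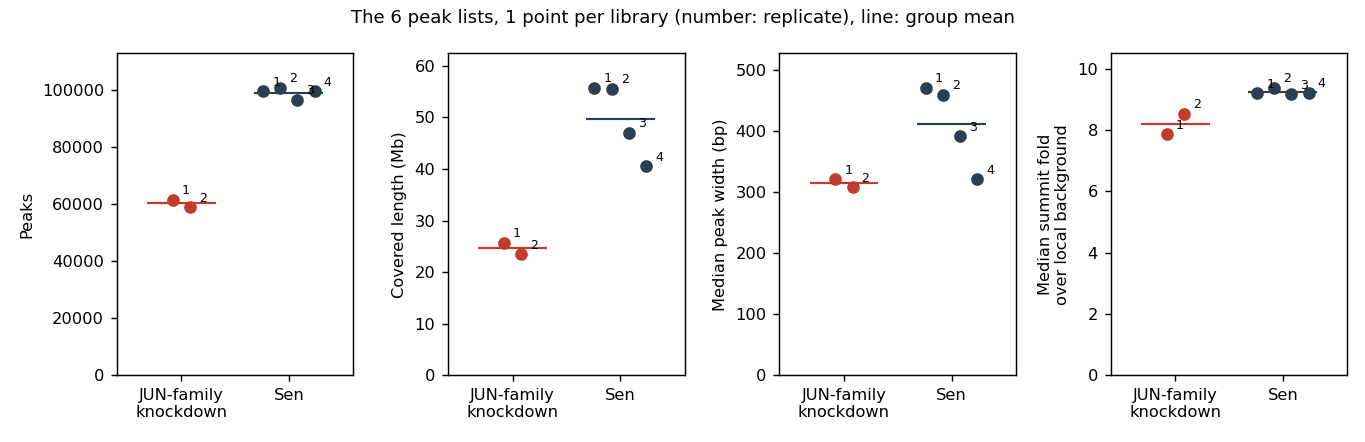
Peak number, covered length in Mb, median peak width in bp and median summit fold of the 2 JUN-family knockdown lists and the 4 Sen lists, each point a library with its replicate number and each line a group mean. Both knockdown points sit below all Sen points in every panel but width, where knockdown replicate 1 and Sen replicate 4 are both at 321 bp.

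Depth was recovered from the lists as the background coverage, which was 3.08 and 2.01 after knockdown and 2.90, 2.50, 3.06 and 2.57 in Sen. Knockdown replicate 1 thus lay above every Sen library and replicate 2 below every one. To be listed over this background, a summit had to reach a fold of 3.92 and 4.32 after knockdown, and of 3.84, 4.00, 3.70 and 3.93 in Sen. Over a higher local background a lower fold was enough. Names inside the peak lists follow a shared style for the knockdown and Sen replicates 3 and 4 and another for Sen replicates 1 and 2, which may mark separate processing, so values against Sen replicates 3 and 4 alone are given too. Against these the ratio of peak number was 0.614, of covered length 0.562, of median width 0.882 and of summit fold 0.891. The labels do not say whether replicates came from separate cultures, and the spread among them, and every p-value built on it, may be technical.

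Knockdown lists were largely contained in Sen lists, and the reverse was not true. Of the peaks in a knockdown list, between 81.8% and 90.6% overlapped a peak of any given Sen list (median 87.8% over 8 pairs). Of the peaks in a Sen list, between 48.1% and 54.6% overlapped a peak of a knockdown list (median 52.1%). The knockdown lists held fewer peaks, which by itself limits how many Sen peaks they can overlap. Within groups the overlaps were 84.6% and 88.7% between the knockdown lists and 81.1% to 89.6% between Sen lists.

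Of the 74908 regions with a peak in all 4 Sen libraries, 23693 had none in either knockdown library and are called closed, which means unlisted and not shown to be inaccessible. They made up 31.6% of the Sen regions. A further 8195 (10.9%) had a peak in 1 knockdown library, 4178 of them in replicate 1 and 4017 in replicate 2, and 43020 (57.4%) were kept in all 6 libraries. Conversely, 3033 of the 50728 regions held by both knockdown libraries had no Sen peak and are called opened, or 5.98%. Against Sen replicates 3 and 4 alone, 30235 of 86184 regions closed, or 35.1%, and 3293 opened. When each list was reduced to its 58955 strongest peaks, 7034 regions were closed and 7562 opened, and equal lists bring these counts close to each other by construction. The part that depth and overall enrichment have in these counts was not tested.

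The absences were shared between the knockdown libraries. Replicate 1 lacked a peak at 37.0% of the Sen regions and replicate 2 at 37.2%, and 31.6% lacked one in both. A single Sen library set against the regions of the other 3 lacked 2.74% (Sen 1), 5.35% (Sen 2), 3.47% (Sen 3) and 5.23% (Sen 4). At the same 4 sets of regions a knockdown library lacked 37.9% to 40.1%. Every knockdown value lay above every Sen value. Absence also went with weak support in Sen, since the share of regions found in neither knockdown library was 90.7% for those held by 1 Sen library, 81.9% for 2, 74.4% for 3 and 31.6% for 4.

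In the Sen libraries, closed regions were weaker and narrower than kept ones. Their median summit fold in Sen replicates 1 to 4 was 8.97, 9.51, 8.20 and 8.17, against 11.5, 11.4, 11.9 and 12.4 at kept regions. The width covered by Sen peaks had medians of 417, 424, 324 and 268 bp at closed regions, against 668, 649, 603 and 521 bp at kept ones. Both medians were lower at closed regions in each of the 4 libraries. Merged opened regions, made of knockdown peaks alone, had a median length of 269 bp (219 and 354 as quartiles), with a median summit fold of 7.11 and 7.10 in knockdown replicates 1 and 2. A closed region can only be listed as absent, so its fall is known as a bound. The lowest Sen fold exceeded the highest listing threshold of the knockdown libraries by at least 2-fold at 7623 closed regions, by 3-fold at 1278 and by 4-fold at 68. The median fold at kept regions after knockdown was 0.773 times that of Sen. After this general shift was taken out, 2919, 115 and 0 closed regions passed these bounds, and 1742, 390 and 60 opened regions did, against 784, 70 and 6 opened regions without it.

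Both the strength and the width of a Sen region went with its fate. When Sen regions were put in 10 bins of equal size by their mean log2 summit fold in Sen, the closed share was 50.7% in the weakest bin, 34.7% in bin 5 and 7.80% in the strongest. Each bin was divided further into 4 width classes of equal size, and the narrowest class closed more often than the widest in every bin. In bin 1 the shares were 66.1% of the narrowest and 27.3% of the widest class, in bin 5 they were 58.2% and 7.96%, and in bin 10 they were 18.0% and 0.694%. Across bins, the 4 width classes had median widths of 284, 416, 586 and 939 bp and closed shares of 50.8%, 38.8%, 27.0% and 9.93%. A wide region offers more bases on which a knockdown peak can fall. Counting instead whether a knockdown summit lay within 250 bp of the median Sen summit gave unmatched shares of 50.9%, 39.0%, 28.6% and 15.3% for the classes, and 18.0% and 0.908% for the narrowest and widest of bin 10. With bins and widths from Sen replicates 3 and 4 alone, the classes closed at 55.2%, 41.6%, 30.4% and 13.2%. These shares describe regions, which are not replicates, and the part of depth and of the listing threshold in them was not tested.

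**Figure D2:**
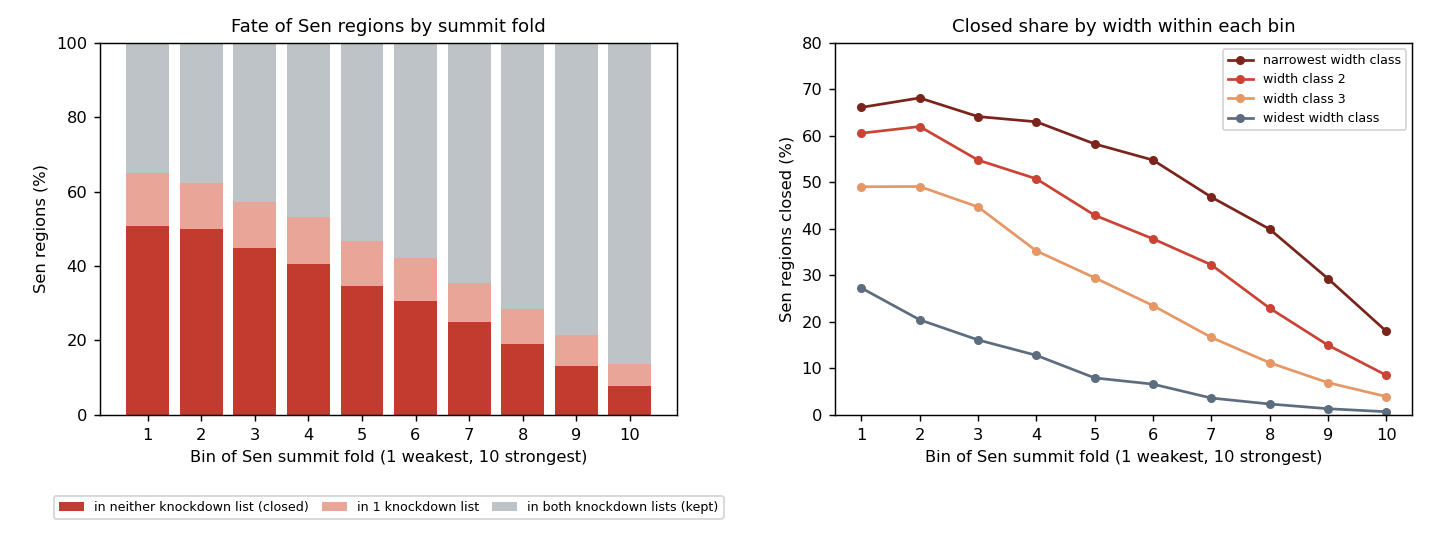
Left, the percentage of Sen regions in neither, 1 or both knockdown lists, in 10 bins of Sen summit fold from weakest to strongest, with the closed share at 50.7% in bin 1 and 7.80% in bin 10. Right, the percentage closed in each of 4 width classes of each bin, where the narrowest class lies above the widest in all 10 bins.

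The closed regions with the strongest Sen peaks, chosen by their lowest Sen fold, all lay in the strongest of the 10 bins, which that choice favours. The first, chr19:43525626-43526438, had folds of 21.8, 25.9, 29.8 and 28.9 in Sen replicates 1 to 4 and no listed peak after knockdown. At chr5:52507398-52508008 the Sen folds were 22.9, 21.2, 22.9 and 26.9, and at chr15:31164397-31164967 they were 21.3, 21.9, 20.5 and 21.7. All of these Sen values stood far above the knockdown thresholds of 3.92 and 4.32. The next were chr13:27082882-27083538 with a mean fold of 20.7 ± 0.657, chr4:95735169-95735744 with 22.04 ± 2.15 and chr7:25054220-25054730 with 21.8 ± 1.81 in Sen (SD, n = 4 each). Of these 6, the regions on chromosomes 5 and 4 had no peak in either list of proliferating cells (Pro) and the other 4 had one in both. All 6 had a peak in at least 1 of the senescent libraries with siRNA against FOXF1/2, and 5 of them in both. Over the whole closed set, 61.0% lacked a Pro peak, 24.0% overlapped peaks of both Pro lists, and 80.4% had a peak in at least 1 siFOXF1/2 library and 67.7% in both. Among all Sen regions the same shares were 26.1%, 64.7%, 91.9% and 85.4%. Closed regions were also weaker and narrower in Sen, and these shares were not matched for strength or width. The part of strength and width in the difference was not tested.

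The widest closed regions were broad and weak instead. Sen peaks covered 2316, 2671, 1906 and 827 bp of chr12:76418143-76420996, with summit folds of 2.68, 2.52, 2.81 and 3.19. They covered 2518, 2528, 467 and 173 bp of chr19:1469025-1471573, at folds of 4.23, 5.33, 3.26 and 3.33. At chr8:23696648-23699146 they covered 2089, 2327, 2038 and 1425 bp, at folds of 4.72, 3.92, 5.45 and 4.097. All 3 regions lay in the weakest bin, close to what the caller could list, so an absent peak after knockdown says little of the size of the change. At the first 2 regions the covered width differed several-fold among the Sen libraries themselves.

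Opened regions were few but some were strong. The region chr1:80883371-80883688 had summit folds of 19.4 and 22.2 after knockdown and no peak in any Sen library. At chr6:97625872-97626091 the knockdown folds were 18.1 and 18.1, and at chr7:83932343-83932617 they were 18.0 and 18.8. Sen libraries listed nothing at these places although the highest of their listing thresholds was 4.00. The other 3 were chr5:31066534-31067066 with a mean of 17.2 ± 0.217, chr13:85921466-85921730 with 16.4 ± 0.235 and chr5:81407096-81407315 with 16.3 ± 0.240 after knockdown (SD, n = 2 each). Of the 6, chr5:31066534-31067066 and chr13:85921466-85921730 had a peak in both Pro lists and the other 4 in neither, and 0 of the 6 had a peak with siRNA against FOXF1/2. Of all 3033 opened regions, 21.6% had a peak in both Pro lists and 67.7% in neither, and 73.5% had no peak with siRNA against FOXF1/2. Among all merged regions of the 6 lists these shares were 42.7%, 48.2% and 26.0%. Opened regions lack a Sen peak by definition, while all but 6606 of the merged regions have one. This definition by itself favours absence from other senescent lists, so the difference has no test.

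**Figure D3:**
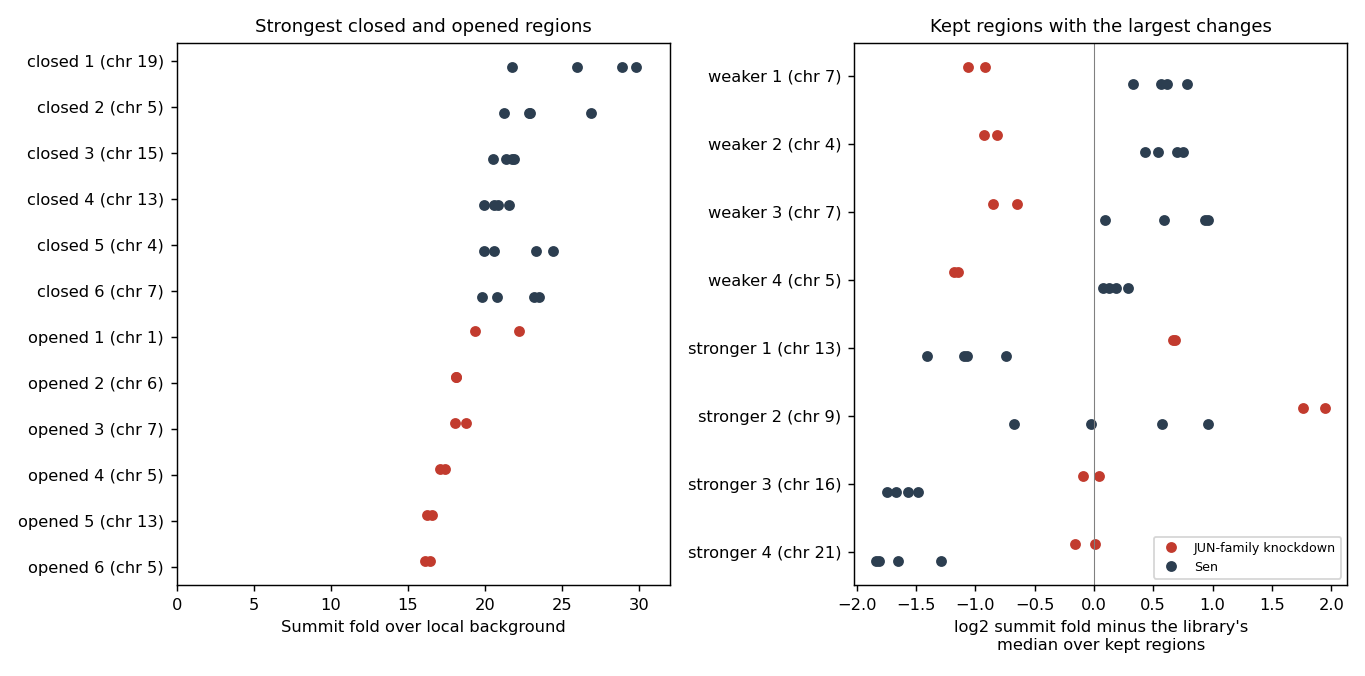
Left, summit fold over local background at the 6 strongest closed and the 6 strongest opened regions, where closed regions have 4 Sen points from 19.8 to 29.8 and opened ones 2 knockdown points from 16.1 to 22.2. Right, log2 summit fold minus the library's median at the 4 kept regions with the largest fall and the 4 with the largest rise, 1 point per library. Regions were chosen to have no overlap between knockdown and Sen, so none of the 8 shows any.

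Where a peak was kept, its summit was lower after knockdown as a rule. Relative to that general shift the weak Sen regions lost less, a pattern that the choice of regions itself favours. The median summit fold over the 43020 kept regions was 8.84 and 9.38 after knockdown, against 11.5, 11.4, 11.9 and 12.4 in Sen, with no overlap. On the log2 scale the median shift was −0.37. With each library centred on its own median, 5567 kept regions were weaker after knockdown (12.9%) and 8209 stronger (19.1%), at a Benjamini-Hochberg adjusted p under 0.05 in limma over all kept regions. Without centring, 18877 were weaker and 695 stronger, so the direction of many calls depends on the scaling, and with quantile scaling the counts were 6312 and 5971. The stronger calls also depend on knockdown replicate 1, Sen replicate 1 and knockdown replicate 2: leaving each out gave 1662, 5402 and 4176 stronger regions. Without knockdown replicate 1 the weaker calls numbered 2667. Stronger calls collected in weak bins, with 47.0% stronger and 0.0765% weaker in bin 1 against 10.8% and 24.6% in bin 10. The median centred log2 change was 0.41 in bin 1 and −0.04 in bin 10. The bins were made from Sen values that also enter the comparison, and a weak Sen region had to be listed in both knockdown libraries to be kept at all, so these shares have no test.

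The largest falls at kept regions left peaks close to the listing threshold. At chr7:75580691-75581182 the summit fold was 4.67 and 4.49 after knockdown, against 17.0, 19.6, 18.2 and 15.5 in Sen. The log2 difference in centred values was −1.56 (SE 0.13, limma adjusted p = 0.000298). The groups lay far apart, and the same held at the next 2 regions, which were chosen for large changes without overlap. At chr4:56379146-56379706 the folds were 4.66 and 5.31 after knockdown, against 18.7, 19.1, 16.1 and 18.0 in Sen, a log2 difference of −1.48 (SE 0.12). At chr7:27086535-27087052 they were 4.90 and 5.98 after knockdown, against 22.4, 21.8, 17.9 and 13.2 in Sen, a difference of −1.40 (SE 0.20). The fourth, chr5:115315072-115315989, averaged 4.07 ± 0.232 after knockdown (SD, n = 2) and 13.3 ± 0.395 in Sen (SD, n = 4). All 4 regions had peaks in both Pro lists and in both siFOXF1/2 lists, as did 88.6% and 95.4% of all kept regions, respectively.

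Among the 4 largest rises, the region chr9:67319659-67320919 had the highest folds after knockdown. Its summit fold was 34.1 and 31.9 after knockdown, against 11.3, 7.14, 17.7 and 24.1 in Sen. The Sen values spread more than 3-fold among themselves. Both knockdown values lay above all of them (log2 difference 1.65, SE 0.32, limma adjusted p = 0.00400), which the choice of these regions required of centred values. This call was lost without knockdown replicate 1 (limma adjusted p = 0.0560, log2 difference 1.59). The other 3 were weak in Sen. At chr13:37352235-37352777 the folds were 14.2 and 14.9 after knockdown, against 5.38, 4.29, 7.15 and 5.89 in Sen (log2 difference 1.75, SE 0.17). The regions chr16:56945748-56946460 and chr21:43032919-43033376 averaged 8.95 ± 0.235 and 8.65 ± 0.354 after knockdown (SD, n = 2 each), against 3.86 ± 0.430 and 3.83 ± 0.868 in Sen (SD, n = 4 each).

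Relative summit strength was also compared by whether a kept region had a peak in proliferating cells. Of all 2889 kept regions without a Pro peak, 19.9% were weaker and 15.2% stronger, with a median log2 change of −0.01. Of the 38133 with a peak in both Pro lists, 12.0% were weaker and 19.7% stronger, with a median change of 0.08. The median centred log2 fold of regions without a Pro peak minus that of regions with both was −0.37 and −0.36 in the knockdown libraries, against −0.31, −0.25, −0.27 and −0.29 in Sen replicates 1 to 4. The groups did not overlap, but the difference between them was small. It was larger in bins 6 to 10, a subset chosen after seeing the data. There, 1274 had no Pro peak, and 39.9% of them were weaker and 4.16% stronger, with a median log2 change of −0.28. Of the 24607 with a peak in both Pro lists, 16.9% were weaker and 15.1% stronger, with a median change of 0.02. The Pro lists took no part in the centring or the fit, but bins 6 to 10 were chosen by high Sen fold. That choice brings the Sen values of regions with and without a Pro peak closer together. The larger difference in these bins therefore has no test. In these bins the same gap was −0.38 and −0.36 in the knockdown libraries, against −0.09, −0.06, −0.07 and −0.11 in Sen replicates 1 to 4, so that the knockdown values were alike in both sets of regions and the Sen values were smaller in size in bins 6 to 10. Against Sen replicates 3 and 4 alone, in bins 6 to 10, 30.1% of 1759 regions without a Pro peak and 12.2% of 27999 with both were weaker, with median changes of −0.22 and 0.01.

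**Figure D4:**
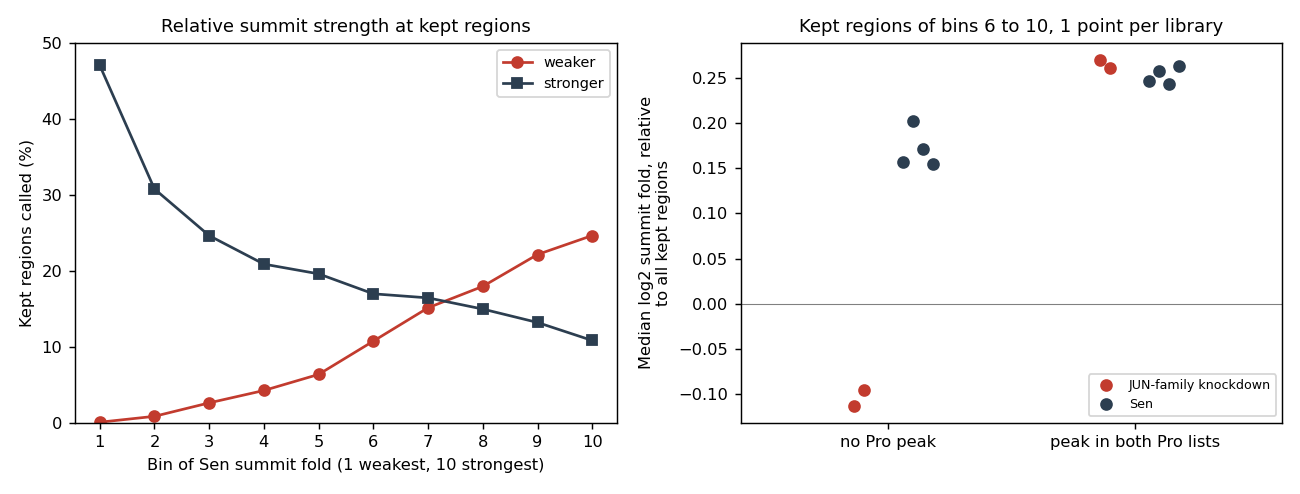
Left, the percentage of kept regions called weaker and stronger in relative summit fold in 10 bins of Sen summit fold, with stronger calls at 47.0% and weaker at 0.0765% in bin 1, and at 10.8% and 24.6% in bin 10. Right, median centred log2 summit fold in each library at kept regions of bins 6 to 10, without a Pro peak and with one in both Pro lists, where the 2 knockdown points lie below the 4 Sen points only on the left.

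Kept peaks were also narrower after knockdown. The median covered width per kept region was 406 and 380 bp after knockdown, against 668, 649, 603 and 521 bp in Sen, with no overlap. In limma on log2 width, 16982 kept regions were narrower (39.5%) and 158 wider (0.367%), with a median log2 change of −0.50. Against Sen replicates 3 and 4 alone 3858 were narrower, 8.33% of those kept, and 138 wider, with a median change of −0.35. The narrower count was 9684 without knockdown replicate 2, 10444 without Sen replicate 1 and 10644 without Sen replicate 2. When widths were centred on each library's median, 4002 were narrower and 6932 wider, so the direction of these calls depends on the scaling. Width and strength moved together: of the weaker regions 70.3% were narrower (median log2 change −0.95), of the stronger 20.5% (−0.24) and of the rest 39.0% (−0.50).

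The largest width changes were of broad regions. At chr2:20423097-20425371 peaks covered 162 and 211 bp after knockdown, against 2080, 2095, 1650 and 1299 bp in Sen, a log2 difference of −3.24 (SE 0.23, limma adjusted p = 0.00102). At chr2:64429544-64431657 they covered 210 and 179 bp after knockdown, against 2114, 2084, 1250 and 964 bp in Sen (log2 difference −2.97, SE 0.35). The Sen libraries differed among themselves, yet the lowest still covered several times the knockdown widths. Both regions were chosen for large changes in width without overlap. This second call was lost in lists of equal length (limma adjusted p = 0.118, log2 difference −2.07). Summit fold at the first was 3.28 and 3.96 after knockdown, against 7.19, 7.04, 6.90 and 6.00 in Sen. At the second it was 8.43 and 7.57 after knockdown, against 8.52, 9.16, 9.13 and 10.8 in Sen. The groups were apart at both regions, widely at the first and narrowly at the second.

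Wider peaks were the exception. Peaks covered 1706 and 1690 bp of chr17:45214519-45216224 after knockdown, against 191, 191, 594 and 208 bp in Sen (log2 difference 2.71, SE 0.49, limma adjusted p = 0.00924). That call was lost without knockdown replicate 1 (limma adjusted p = 0.0507, log2 difference 2.71), without knockdown replicate 2 (0.0601, 2.72) and against Sen replicates 3 and 4 alone (0.0787, 2.27). Summit fold there was 11.4 and 12.3 after knockdown, against 6.33, 6.32, 9.16 and 11.5 in Sen, and the groups overlapped. At chr12:105916251-105917560 they covered 1169 and 1283 bp after knockdown, against 318, 369, 234 and 194 bp in Sen (log2 difference 2.18, SE 0.28). The summit fold at this region was 11.2 and 12.0 after knockdown, against 13.1, 11.4, 13.8 and 9.91 in Sen, and the groups overlapped too.

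Summit positions at kept regions were compared next. Kept regions hold overlapping peaks of all 6 lists by definition, which limits how far summits can lie apart. At kept regions between 1.29% and 2.51% of the summits of a Sen library lay outside the peaks of a given knockdown library, while 0.0628% to 0.416% lay outside those of another Sen library. The range for knockdown peaks was the higher one throughout. Knockdown peaks at kept regions were also narrower and so offer fewer bases on which a summit can fall. The part of width in these shares was not tested. Knockdown summits lay outside Sen peaks in 0.235% to 0.709% of cases and outside the other knockdown library's peaks in 0.911% to 1.10%. The median distance between summits was 18 to 31 bp between a Sen and a knockdown library, 8 to 21 bp between Sen libraries and 20 bp between the knockdown libraries. At 102 of the 43020 kept regions all 4 Sen summits fell outside the knockdown peaks.

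Closed regions lay beside other closed regions slightly more often than kept regions did. Taking each Sen region and the next one on its chromosome within 100 kb, the next was closed after 33.9% of closed regions (95% Wilson interval 33.2 to 34.5) and after 30.2% of kept ones (29.8 to 30.7). The difference of 3.62 percentage points was positive in all 10 strength bins of the next region, from 1.73 to 9.56 points. From the strength and width of the next regions alone, the shares would have been 31.6% and 31.8%. Against Sen replicates 3 and 4 alone the difference was 3.55 points, and leaving out 1 library at a time gave 2.48 to 4.02. The intervals cover counting error over regions only. The distance to the nearest Sen region was similar, with medians of 7385 bp for closed and 7112 bp for kept regions. The Sen region nearest to an opened one was closed in 29.7% and kept in 59.4% of cases, near their shares of 31.6% and 57.4% among all Sen regions.

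Most closed regions stood alone or in short runs. With gaps of at most 100 kb, 11110 closed regions (46.9%) had a closed Sen region neither before nor after them, and 5849 (24.7%) lay in 1638 runs of 3 or more. As 31.6% of all Sen regions were closed, runs also arise in a random order. No expected run lengths were computed, so these shares do not show clustering. The longest run held 11 consecutive closed regions, at chr3:174758983-175056962. The knockdown libraries listed 2 and 1 peaks in that interval, against 15, 15, 13 and 13 in Sen, and 6 of the 11 regions had no Pro peak, against 61.0% over the whole closed set. At chr17:9079499-9203397, with 10 closed regions, the knockdown libraries listed 0 and 0 peaks, against 11, 13, 11 and 13 in Sen, and 5 of the 10 regions had no Pro peak. At chr5:158067105-158338632, also with 10, they listed 1 and 1, against 12, 12, 11 and 10 in Sen, and 9 of the 10 regions had no Pro peak. Of 4 runs with 9 closed regions, the 2 with the most closed regions per kb were chr5:53843799-53940486 and chr3:143410259-143620586. At chr5:53843799-53940486 there were 3 and 1 knockdown peaks, against 9, 11, 9 and 10 in Sen, and 3 of the 9 regions had no Pro peak. At chr3:143410259-143620586 there were 2 and 1, against 10, 16, 12 and 11 in Sen, and 5 of the 9 had none. The groups were far apart in all 5 runs, which were chosen for that. In lists of equal length the 5 runs held 4, 2, 4, 5 and 3 consecutive closed regions.

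The closed share varied little between chromosomes except on chromosome 19. Chromosome 19, the most gene-dense human chromosome, had the lowest share, with 477 of 2296 Sen regions closed or 20.8% (95% Wilson interval 19.2 to 22.5). Knockdown replicates 1 and 2 each lacked a peak at 24.8% and 25.2% of its Sen regions, against 37.0% and 37.2% over all chromosomes. Strength and width alone gave 27.7% for chromosome 19, and against Sen replicates 3 and 4 alone its share was 24.8%, again the lowest of the 22. Chromosomes 16 and 17 followed with 28.0% and 28.3%, and chromosome 4 was the highest with 34.6%. Opened regions followed the same order at these ends, with 1.83 per 100 Sen regions on chromosome 19 and 5.59 on chromosome 4. Peaks in both Pro lists were found at 77.5% of the Sen regions of chromosome 19 and at 60.3% of those of chromosome 4. In 1655 windows of 1 Mb with at least 20 Sen regions the closed share had a median of 31.4% (quartiles 25.6% and 38.1%). The highest was chr3:17000001-18000000 with 15 of 24 closed, followed by chr17:53000001-54000000 with 22 of 36. The lowest was chr19:37000001-38000000 with 0 of 22, followed by chr19:9000001-10000000 with 1 of 20 and chr6:28000001-29000000 with 3 of 54. Strength and width alone gave 31.0% and 37.0% for the 2 highest and 3.76%, 12.6% and 20.3% for these 3 lowest, so that the first of them was about as low as those measures give. Windows with few regions vary most by counting error alone.

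**Figure D5:**
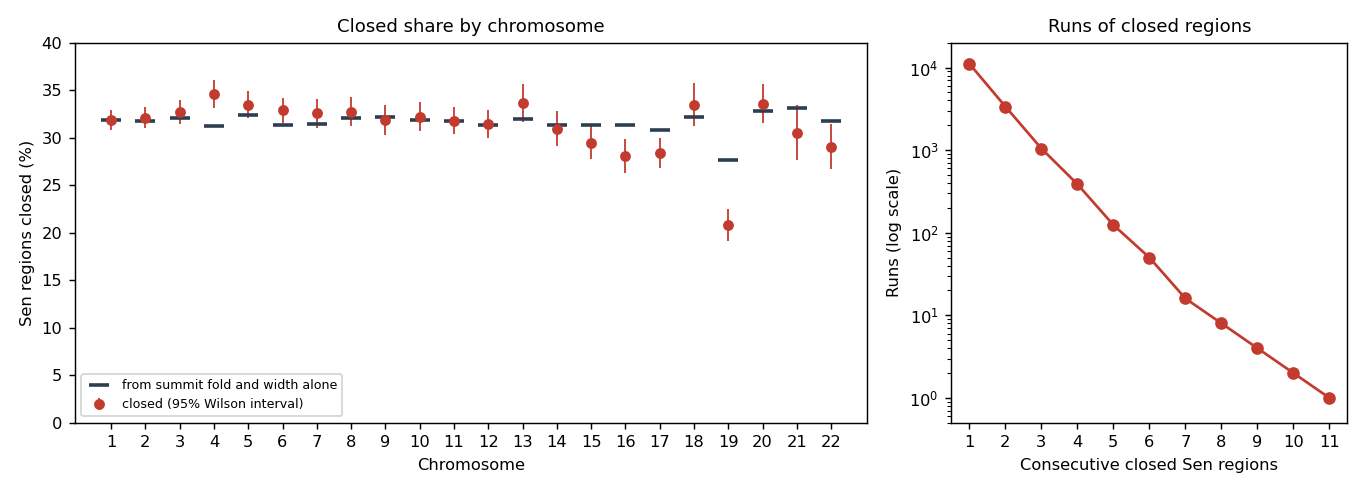
Left, the percentage of Sen regions closed on each of 22 chromosomes with 95% Wilson intervals (points) and the share that summit fold and width alone would give (dashes), with chromosome 19 lowest at 20.8% against 27.7%. Right, the number of runs of consecutive closed Sen regions by their length on a log scale, from 11110 single regions to 1 run of 11.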

How the data were processed

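Each library has its own deposited list in the narrowPeak layout of MACS2. They give, per the file layout, the authors' fold ratio at the summit over local background and the −log10 of the p-value and q-value. Bowtie2 2.3.4.1, SAMtools 1.9, deepTools 3.1.1, MACS2 2.1.1 and build hg19 are named in the submitters' processing notes, and paired reads were 35 bp per the labels' protocols. No source used here gives the tools' roles, caller settings, duplicate removal or read shifting. Read totals are not in the lists: the whole summit pileup, the local background and its 1st percentile (background coverage) were recovered from fold and −log10 p, for at least 99.998% of peaks, within 0.002 in −log10 p (widened in proportion for larger values).

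Peaks on chromosomes 1 to 22 were merged by 1 bp or more of overlap. A region's strength in a library was its highest fold, and its width the bases covered. Kept regions were tested with limma 3.58.1 (trend, adjusted p under 0.05) in R 4.3.3, on log2 fold centred on each library's median and on log2 width uncentred, group as the only term. Whole-list values were compared by exact permutation tests (SciPy 1.17.1). The bins used the mean log2 fold over the Sen libraries. The expected shares from strength and width came from the closed shares of the 10 bins and 4 width classes. The scripts were tested on simulated data. The fold bounds, the summit-based closing and fits on bins 6 to 10 were added after seeing the data. The 6 strongest closed and opened regions (by lowest fold over the libraries holding them), the 4 weaker and 4 stronger and 2 narrower and 2 wider regions with the largest changes among non-overlapping calls, the 5 longest runs and the 3 widest closed regions are named. The members and lists were chosen with earlier results of these data known. No hg19 sequence or annotation was used here, so regions carry positions only.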

Additional observations from a re-analysis of the deposited data

Results flagged for a closer look

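Of 32 sets of 4 Sen values tested, 2 held a library that stood apart from the other 3, where chance alone sets apart about 1 in 20. At chr5:115315072-115315989, where the knockdown folds were 3.91 and 4.23, Sen replicate 2 had a summit fold of 13.8 and the others between 13.0 and 13.1. At chr17:45214519-45216224, where knockdown peaks covered 1706 and 1690 bp, those of Sen replicate 3 covered 594 bp and those of the others 191 to 208 bp.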

How the results depend on the processing

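No named region changed sign under the alternatives that gave a value for it, and 105 of 131 values of whole comparisons were counted as unchanged. Among the named kept regions, lists of equal length gave a log2 change only for chr7:75580691-75581182 and chr2:64429544-64431657. The other named kept regions could not be assessed there. Against Sen replicates 3 and 4 alone, chr2:64429544-64431657 could not be assessed. Counts had to stay within 1.5 times the reported count and the clustering difference within its interval. List ratios had only to stay on the same side of 1. In lists of equal length there were 7034 closed, 7562 opened and 72 wider regions. With peaks covering at least 50% of a region 22006 were kept. A 2-fold bound left 7623 closed and 784 opened regions, and 2919 and 1742 once scaled on kept regions. Uncentred folds gave 18877 weaker and 695 stronger regions, and centred widths 4002 narrower and 6932 wider. A fit on the 26879 kept regions of bins 6 to 10 alone gave 4257 stronger and 57 wider regions. The main fit had called 3808 and 50 in these bins. Sen replicates 3 and 4 alone gave 3858 narrower. Leaving out each library in turn gave list ratios of 0.596 to 0.620 for peak number, 0.466 to 0.517 for covered length, 0.713 to 0.804 for width and 0.850 to 0.923 for summit fold. It gave 25413 to 27874 closed, 3101 to 5664 opened (5664 without JUN-family knockdown replicate 2) and 43161 to 47201 kept regions. Of these, 2667 to 5962 were weaker (2667 without knockdown replicate 1), 1662 to 9293 stronger (1662 without knockdown replicate 1), 9684 to 21324 narrower (9684 without knockdown replicate 2) and 55 to 166 wider (55 without knockdown replicate 1, 91 without knockdown replicate 2). The clustering difference was 2.48 to 4.02 points. Where 1 knockdown library was left, it was assumed to vary like the Sen libraries. With the replicate number as a block, 7159 regions were weaker, 10558 stronger, 18630 narrower and 168 wider. Sen replicates 3 and 4 each fill a block alone, so they add nothing to the change in this fit. It rests on the knockdown libraries and Sen replicates 1 and 2, whose peak names follow the other style. Deviations from the group means at kept regions correlated at −0.07 and 0.07 for the same-numbered pairs. The deviations of 2 knockdown libraries mirror each other, so these values cannot tell whether same-numbered samples were paired. Of 163 values of named closed and opened regions under alternatives, 158 kept the call: at 50% cover chr19:43525626-43526438, chr4:95735169-95735744, chr12:76418143-76420996 and chr19:1469025-1471573 lost it, as did chr8:23696648-23699146 in lists of equal length. The regions chr12:76418143-76420996 and chr19:1469025-1471573 gave no value in lists of equal length. The cause was not tested in any of these, beyond what each alternative does by construction. Over the genome-wide background only folds of about 4 or more are listed, and the part of depth was not tested.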
